A study of Homo sapiens with 6 samples.

Results

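IFNL1, IFNB1, CXCL10, CXCL11 and CCL5 encode a lambda interferon, beta interferon and 3 chemokines that interferon induces. They were taken by gene symbol, and all 5 had a row among the 15598 genes of the deposited table. IFNL1, CXCL10 and CXCL11, 3 of the 5, passed a filter on low counts, and IFNB1 and CCL5 did not. They had been picked on their read counts and fold changes in the comparison described here, so their own differences between the groups are a description, with no test. RNA was sequenced from MHCC97H, an established human hepatocellular carcinoma line with high metastatic capacity. In 3 libraries (shHNRNPC) the cells carried a short hairpin RNA against HNRNPC, and in the other 3 (shcontrol) a control hairpin. The labels give no other treatment and tell apart 1 knockdown construct. The question is how loss of HNRNPC alters the expression of genes. Nothing says that the libraries came from separate cultures, so p-values measure the spread between these libraries, which may be technical.

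Lambda and beta interferon are secreted antiviral cytokines. Cells make them when sensors such as RIG-I or MDA5 detect double-stranded RNA and, through the adaptor MAVS and the kinase TBK1, activate IRF and NF-kB transcription factors. Beta interferon acts through IFNAR1 and IFNAR2, whereas lambda interferons act through IFNLR1 and IL10RB, a receptor found mainly on epithelial cells, hepatocytes included. Both receptors signal through JAK kinases to a complex of STAT factors and IRF9. CXCL10 and CXCL11 attract activated T cells and natural killer cells through CXCR3, and CCL5 attracts T cells and monocytes through receptors that include CCR1 and CCR3. The knocked-down gene codes for hnRNP C, which coats uridine-rich RNA in the nucleus.

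Promoter sequences are shown because NF-kB and IRF factors are the textbook activators of these genes. Of the 5 genes, 4 matched a RefSeq promoter entry (build GRCh38.p14), and the unmatched gene was CCL5. Each entry runs 5′ to 3′ on the gene strand over 300 bases, from 250 before to 50 after the transcript start. Capitals mark every match, on either strand, to GGAAATTC, the core of an NF-kB-type site, and to AANNGAAA, the core recognised by IRF factors, where N is any base.
CXCL10, chr4:76023448-76023747, minus strand: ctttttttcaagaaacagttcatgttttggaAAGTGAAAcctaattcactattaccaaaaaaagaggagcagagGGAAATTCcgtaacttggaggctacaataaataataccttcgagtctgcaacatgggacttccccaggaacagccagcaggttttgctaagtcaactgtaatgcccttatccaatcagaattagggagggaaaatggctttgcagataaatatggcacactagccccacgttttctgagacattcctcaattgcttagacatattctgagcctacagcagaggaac
CXCL11, chr4:76036021-76036320, minus strand: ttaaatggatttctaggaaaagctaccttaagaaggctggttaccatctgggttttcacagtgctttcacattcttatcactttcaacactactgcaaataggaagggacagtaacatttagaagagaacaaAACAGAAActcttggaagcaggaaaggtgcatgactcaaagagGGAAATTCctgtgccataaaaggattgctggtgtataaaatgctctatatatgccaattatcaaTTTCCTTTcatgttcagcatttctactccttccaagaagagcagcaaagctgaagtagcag
IFNB1, chr9:21077893-21078192, minus strand: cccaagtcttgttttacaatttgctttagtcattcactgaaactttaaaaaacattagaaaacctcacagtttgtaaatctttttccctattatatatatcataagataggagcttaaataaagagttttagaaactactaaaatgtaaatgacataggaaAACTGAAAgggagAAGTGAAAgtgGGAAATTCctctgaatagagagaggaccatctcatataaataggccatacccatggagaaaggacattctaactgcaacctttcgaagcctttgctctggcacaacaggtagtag
IFNL1, chr19:39296157-39296456, plus strand: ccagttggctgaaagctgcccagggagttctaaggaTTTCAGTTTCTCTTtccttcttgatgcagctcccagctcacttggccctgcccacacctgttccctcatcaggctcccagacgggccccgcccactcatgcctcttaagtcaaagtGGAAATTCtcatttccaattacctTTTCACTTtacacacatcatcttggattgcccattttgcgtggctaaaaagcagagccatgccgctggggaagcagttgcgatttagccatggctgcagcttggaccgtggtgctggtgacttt

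All 4 promoters held GGAAATTC once, on the gene strand, and at least 1 match to AANNGAAA. Among 35116 RefSeq promoters of the same length, 1.26% held GGAAATTC on either strand, 22.8% held AANNGAAA and 0.47% held both. These letters were chosen after the promoters had been read, and a match is a description of sequence, not a measured binding site. Distances are from the RefSeq start, which is not always the deposited gene start. That of CXCL11 (76041415, minus strand) lies upstream of its whole window. Those of IFNL1 (39296325) and IFNB1 (21077963) lie inside their windows, upstream of the RefSeq start. Which start these cells use was not determined. The NF-kB-type letters began 176 bases before the RefSeq transcript start in CXCL10, 98 in IFNL1, 75 in CXCL11 and 65 in IFNB1. With 8 bases on either side, the stretch in IFNB1 read tgaaagtgGGAAATTCctctgaat and that in IFNL1 read gtcaaagtGGAAATTCtcatttcc, with the searched letters in capitals.

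The IRF letters differed in number and spacing. IFNB1 had 2 matches, beginning 89 and 76 bases before the start and lying just upstream of the NF-kB-type letters. IFNL1 had 3, all on the opposite strand, of which 2 overlapped each other 214 to 201 bases before the start. CXCL10 had 1 match, beginning 219 bases before the start, and CXCL11 had 2, on opposite strands. The AP-1-type letters TGANTCA, in 7.71% of promoters, were present in CXCL11 alone among the 4. The TATA box letters (TATAAA), in 11.5% of promoters, were present in CXCL11 and IFNB1.

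**Figure D1:**
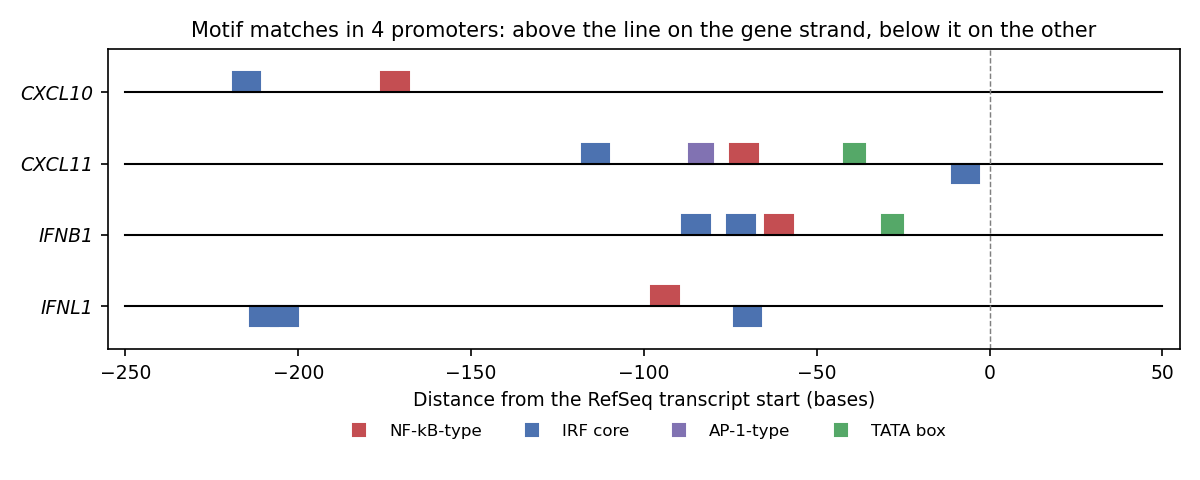
Matches to 4 sets of letters in the promoters of CXCL10, CXCL11, IFNB1 and IFNL1, by distance in bases from the RefSeq transcript start; boxes above each line are on the gene strand and boxes below on the other. Every promoter has 1 match to the NF-kB-type letters GGAAATTC, between 176 and 58 bases before the start, and at least 1 IRF core match. Other forms of NF-kB site were not searched for.

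Library totals ranged from 15563077 to 18328475 counts. HNRNPC itself was lower in every shHNRNPC library, going from 853 ± 4.76 to 62.3 ± 3.80 CPM (mean ± SD, n = 3 each; CPM are counts scaled to a common library size with TMM factors). Of hepatocyte markers, ALB had 0 reads in shcontrol and 1 in shHNRNPC, APOA1 0 and 2, and AFP 7 and 5, summed over each group, so these secreted liver proteins were at or near 0. The epithelial keratins KRT8 (1006 ± 7.07 to 1159 ± 8.20 CPM) and KRT18 (364 ± 7.16 to 405 ± 8.77 CPM) were abundant. Among 7 leukocyte markers with a row, CD3E and NKG7 had at most 3 reads in either group. CD68, a lysosomal protein, was the leukocyte marker that rose (43.2 ± 3.64 to 64.9 ± 2.12 CPM, edgeR adjusted p = 3.15e-13), and the summed counts of the list were 919 to 1129 in shcontrol and 1233 to 1432 in shHNRNPC. The part of this shift in the results was not tested.

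Counts in single libraries are given in the order NC_3, NC_3_2, NC_3_3 for shcontrol and SI_3, SI_3_2, SI_3_3 for shHNRNPC. IFNL1, the most counted lambda interferon gene, had 1, 11 and 10 reads in shcontrol and 27, 31 and 17 in shHNRNPC. The lowest shHNRNPC library lay above the highest shcontrol library, and NC_3 stood well under the other shcontrol libraries. The level was 0.431 ± 0.332 CPM (n = 3) in shcontrol and 1.46 ± 0.434 CPM (n = 3) in shHNRNPC, a fitted ratio of 3.35 (log2 fold change 1.75, SE 0.41). In such bulk samples a change in the number of producing cells and a change in RNA per cell cannot be told apart. The ratio of summed counts, 75 against 22 and scaled to library size with TMM factors, was 3.39 (exact 95% interval 2.09 to 5.73). Such intervals cover counting error only. IFNL1 passed the filter on low counts through the shHNRNPC libraries, where it is high, so its presence among the fitted genes carries no weight. The fitted log2 fold change was 1.24 without NC_3 and 2.21 without NC_3_2. In the deposited table IFNL1 lies on chromosome 19, 39296325 to 39298673, plus strand.

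IFNB1, the beta interferon gene, had 2, 2 and 3 reads in shcontrol and 9, 10 and 9 in shHNRNPC. The groups did not overlap, and within each group the counts differed by 1 read at most. The level was 0.135 ± 0.0232 CPM (n = 3) in shcontrol and 0.542 ± 0.0310 CPM (n = 3) in shHNRNPC. IFNB1 did not pass the filter. Its summed counts of 7 and 28 gave a scaled ratio of 3.98 (exact 95% interval 1.70 to 10.8). A fit without the filter gave a log2 fold change of 1.94 (SE 0.70), and the value was 1.63 with a prior count of 1. The gene lies on chromosome 9, 21077105 to 21077963, minus strand.

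The other interferon genes were barely counted. Of 20 further ligand genes listed, from the alpha, epsilon, kappa, omega, gamma and lambda groups, 3 had a row, all of them lambda genes, and the rest are not analysed here. IFNL3 had 1 read in shcontrol and 5 in shHNRNPC, summed over 3 libraries. IFNL2 had 0 and 3 and IFNL4 0 and 2, where a count of 0 in the shcontrol group allows up to 0.0592 CPM, so no ratio is given. IFNL1 accounted for 22 of 23 lambda interferon reads in shcontrol and 75 of 85 in shHNRNPC. IFNL2 and IFNL3 are near-identical copies, so their counts are uncertain.

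CXCL10, the chemokine IP-10, had 40, 44 and 44 reads in shcontrol and 83, 113 and 102 in shHNRNPC. Every shHNRNPC library was above every shcontrol library, and the shcontrol counts were nearly equal. The level was 2.50 ± 0.245 CPM (n = 3) in shcontrol and 5.76 ± 0.698 CPM (n = 3) in shHNRNPC, a fitted ratio of 2.31 (log2 fold change 1.21, SE 0.17). The scaled ratio of summed counts, 298 against 128, was 2.32 (exact 95% interval 1.88 to 2.87).

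CXCL11, the chemokine I-TAC, which binds the same receptor, had 39, 30 and 45 reads in shcontrol and 86, 90 and 102 in shHNRNPC. Again the groups did not overlap. The level was 2.20 ± 0.272 CPM (n = 3) in shcontrol and 5.38 ± 0.342 CPM (n = 3) in shHNRNPC, a fitted ratio of 2.42 (log2 fold change 1.28, SE 0.18). CXCL9, the other CXCR3 ligand, had 2 reads in shcontrol and 4 in shHNRNPC. CXCL10 and CXCL11 together gave all but these reads of the 244 and 580 counted for the 3 ligands.

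CCL5, the chemokine RANTES, had 0, 2 and 1 reads in shcontrol and 7, 4 and 0 in shHNRNPC. The groups overlapped, since 1 library of each held no read. A count of 0 allows up to 0.178 CPM in NC_3 and 0.168 CPM in SI_3_3. The summed counts were 3 and 11, with a scaled ratio of 3.65 (exact 95% interval 0.964 to 20.4). That interval covers counting error only, and these reads are too few to tell whether CCL5 differed. A fit without the filter, which CCL5 did not pass, gave a log2 fold change of 1.75 (SE 1.07); it was 0.87 without SI_3 and 2.65 without NC_3_2.

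In all, 4 of the 5 genes had every shHNRNPC library above every shcontrol library, and the same order held for 24.9% of all 15598 rows. Nothing is read from this count, since the genes were picked with the comparison known. The 5 genes together stood at 4.88, 5.72 and 5.62 CPM of library total in the shcontrol libraries and at 12.7, 13.9 and 12.9 CPM in the shHNRNPC libraries. CXCL10 and CXCL11 made up 79.7% to 96.3% of those reads in each library. The authors' deposited table gives log2 fold changes of 1.77 for IFNL1, 2.0 for IFNB1, 1.21 for CXCL10, 1.29 for CXCL11 and 1.88 for CCL5.

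**Figure D2:**
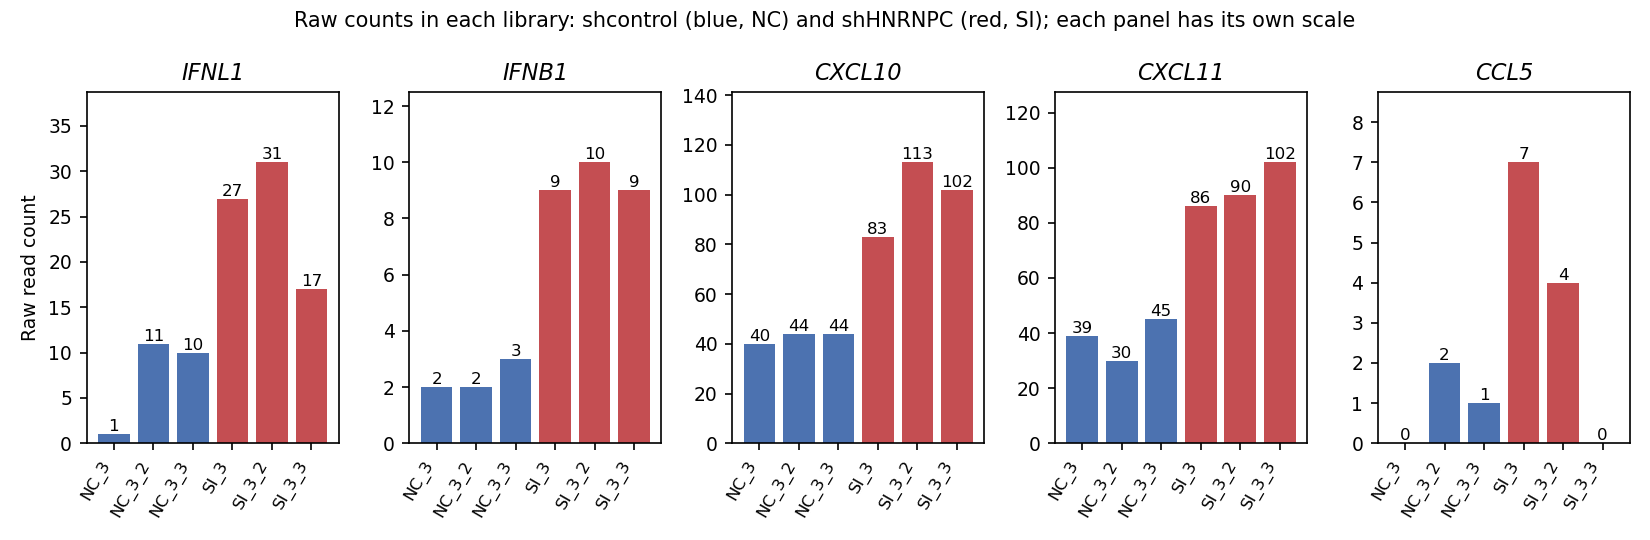
Raw read counts of the 5 genes in each of the 6 libraries, shcontrol in blue and shHNRNPC in red, with the count printed on each bar and a separate axis for each gene. The groups separate for IFNL1, IFNB1, CXCL10 and CXCL11, while CCL5 has a library with 0 reads in each group.

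Levels were compared between genes as CPM per kilobase of the longest coding transcript in GENCODE 29; the transcripts these cells use were not determined. In shHNRNPC libraries the order was CXCL10 (4.89 ± 0.594 CPM per kilobase, n = 3), CXCL11 (3.35 ± 0.213), IFNL1 (1.70 ± 0.507), IFNB1 (0.632 ± 0.0361) and CCL5 (0.160 ± 0.156), and the ranges of neighbours in this order did not overlap. In shcontrol libraries CXCL10 (2.13 ± 0.209 CPM per kilobase) was again above CXCL11 (1.37 ± 0.170). IFNL1 (0.503 ± 0.387) overlapped IFNB1 (0.157 ± 0.0270) there, because NC_3 held less IFNL1 than IFNB1, and CCL5 was lowest by its mean (0.0440 ± 0.0465). On this scale CXCL10 exceeded CXCL11 by 1.34 to 2.0 times within the shcontrol libraries and by 1.32 to 1.71 times within the shHNRNPC libraries. The IFNL1 level was 0.501, 5.51 and 3.34 times that of IFNB1 in the shcontrol libraries, and 3.01, 3.11 and 1.89 times in the shHNRNPC libraries.

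**Figure D3:**
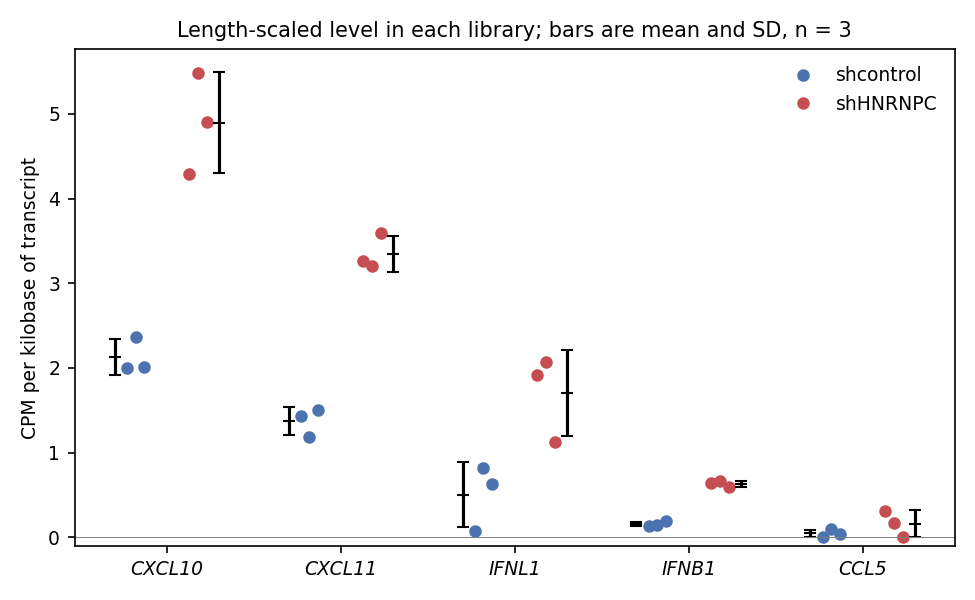
Levels of the 5 genes in CPM per kilobase of transcript, with 1 point per library and black bars for mean and SD (n = 3 per group). CXCL10 is highest in both groups, and its shHNRNPC points span 4.29 to 5.48.

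Across 11831 genes tested with edgeR's quasi-likelihood test, 61.1% were called at an adjusted p under 0.05, 29.8% higher and 31.3% lower in shHNRNPC, and 1.87% were called and at least 2-fold higher. The median log2 fold change was -0.0041. The lists that follow leave out the 5 genes and are read against these shares.

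On the receptor side, IFNLR1, the chain specific to lambda interferon, was lower after knockdown. It had 23, 28 and 22 reads in shcontrol and 14, 9 and 10 in shHNRNPC, without overlap, an order found in 25.9% of all rows. IFNLR1 fell 2.21-fold, from 1.44 ± 0.303 to 0.644 ± 0.182 CPM (log2 fold change -1.15, SE 0.343, edgeR adjusted p = 0.00360), and was named after its value was seen. IL10RB, its partner chain, had 11 and 15 reads in all and was not tested. For beta interferon, IFNAR1 fell 1.35-fold (37.8 ± 1.57 to 28.1 ± 1.09 CPM, edgeR adjusted p = 6.49e-08), while IFNAR2, at 14.6 and 14.3 CPM, did not pass (log2 fold change -0.028, SE 0.0925).

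STAT2, which helps carry the signal to the nucleus, rose 1.42-fold (78.6 ± 2.22 to 112 ± 0.558 CPM, edgeR adjusted p = 1.00e-15). Of the chains of the interferon gamma receptor, IFNGR1 fell 1.20-fold (35.0 ± 1.02 to 29.2 ± 1.14 CPM), and IFNGR2, named after its value was seen, rose 1.24-fold (11.9 ± 0.470 to 14.7 ± 1.02 CPM, edgeR adjusted p = 0.00429). Receptors, JAK kinases and STAT factors as a list split evenly, with 3 of 10 tested genes higher, 3 lower and a median log2 fold change of -0.014. JAK1, JAK2 and TYK2 were among the 4 that did not pass.

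Among sensors and adaptors upstream of the interferon genes, 5 of 11 rose and 2 fell, with a median log2 fold change of 0.20. DHX58, the helicase LGP2, rose 3.80-fold, from 13.8 ± 1.72 to 52.1 ± 2.80 CPM (log2 fold change 1.92, SE 0.0719, edgeR adjusted p = 7.83e-27). IFIH1, the sensor MDA5, rose 1.36-fold, TMEM173, the adaptor STING, 1.41-fold, and TRIM25, a ligase that acts on RIG-I, 1.22-fold. DDX58, the sensor RIG-I itself, rose 1.15-fold. The 2 genes that fell were the kinases TBK1 (1.31-fold, 12.1 ± 0.481 to 9.17 ± 1.04 CPM) and IKBKE (1.31-fold, 23.8 ± 0.571 to 18.2 ± 1.09 CPM), which phosphorylate IRF3. TBK1, IKBKE and DDX58 were named after their values were seen.

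Transcription factors that act on these promoters moved in both directions, with 4 of 13 higher, 6 lower and a median of 0.023. IRF1 rose 1.83-fold, from 46.8 ± 2.18 to 85.8 ± 3.27 CPM (log2 fold change 0.87, SE 0.0470, edgeR adjusted p = 7.74e-21). IRF3, the factor activated first in interferon induction, rose 1.38-fold, and HMGA1, an architectural protein of the IFNB1 enhancer, rose 1.14-fold. JUN, which binds that enhancer as a partner of ATF2, fell 1.46-fold (96.1 ± 4.12 to 66.0 ± 1.03 CPM). Of the NF-kB family, REL fell 2.10-fold, from 91, 124 and 120 to 52, 47 and 61 reads, and NFKB1 fell 1.18-fold, while NFKB2 rose 1.19-fold. RELA (155 and 160 CPM) and RELB (129 and 131 CPM) did not pass. ATF2 fell 1.57-fold. The NF-kB and ATF2 genes were named after their values were seen. IRF7, which amplifies interferon induction, had 6 reads in each group and was not tested.

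Other chemokines did not move as a group. Of 4 further CXC genes that were tested, CXCL16, a ligand of CXCR6, rose 1.61-fold, with 178, 152 and 218 reads in shcontrol and 308, 277 and 302 in shHNRNPC (log2 fold change 0.69, SE 0.0963, edgeR adjusted p = 3.07e-08). The others, CXCL1, CXCL2 and CXCL8, neutrophil attractants under NF-kB control, were at 0.485 to 0.942 CPM in shcontrol and 0.577 to 1.03 CPM in shHNRNPC and did not pass. Without the filter on low counts, 2 CXC genes of the list were called higher in place of 1. Of 3 tested CC and related genes 2 fell and 0 rose. CCL2, a monocyte attractant, fell 1.26-fold (13.4 ± 0.560 to 10.6 ± 0.839 CPM, edgeR adjusted p = 0.00318), and CCL28, a mucosal chemokine, fell 1.19-fold (21.3 ± 1.93 to 17.8 ± 1.42 CPM, edgeR adjusted p = 0.00705). CCL28 lost its call without NC_3_2 (edgeR adjusted p = 0.0731) and without SI_3_3 (edgeR adjusted p = 0.0648).

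Of the receptors for these chemokines, CCR3, which binds CCL5, rose 3.17-fold. Its counts were 8, 8 and 7 in shcontrol and 26, 25 and 23 in shHNRNPC (log2 fold change 1.66, SE 0.364, edgeR adjusted p = 1.08e-04), and it passed the filter through the shHNRNPC libraries, where it is high. ACKR3, a scavenging receptor for CXCL11, and CCR1 did not pass, at 3.75 and 0.899 CPM in shcontrol and 3.16 and 1.09 CPM in shHNRNPC. DPP4, the protease that trims CXCL10, CXCL11 and CCL5, fell 1.23-fold (29.2 ± 2.31 to 23.8 ± 2.39 CPM, edgeR adjusted p = 5.61e-04). ANPEP, an aminopeptidase that also trims CXCL11, did not pass (log2 fold change -0.07, SE 0.0744).

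Cytokine messages are also set by proteins that bind AU-rich stretches built on the pentamer ATTTA. In the longest coding transcript of each gene, IFNL1 held 4 such pentamers in 857 bases, IFNB1 2 in 859, CXCL10 2 in 1176, CXCL11 1 in 1606 and CCL5 0 in 1365. Per kilobase, IFNL1 (4.67) stood at percentile 99.1 of 19669 coding genes, IFNB1 (2.33) at 83.8, CXCL10 (1.70) at 71.2 and CXCL11 (0.623) at 39.4, where the median gene had 0.937. Of 9 proteins that bind such messages, 3 rose and 3 fell, with a median log2 fold change of 0.037. With library size as the only scaling, or without NC_3_2, 1 rose in place of 3. KHSRP, which promotes decay of IFNB1 and other cytokine messages, fell 1.56-fold (549 ± 12.9 to 353 ± 8.42 CPM, edgeR adjusted p = 7.83e-27). TIAL1 and TIA1, translational silencers, fell 1.68-fold and 1.40-fold, and ZFP36, the decay factor tristetraprolin, rose 1.40-fold (26.6 ± 1.62 to 37.1 ± 3.09 CPM).

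Genes that respond to interferon were mostly higher. Of 19 antiviral genes, 18 rose and 1 fell, with a median log2 fold change of 1.11 and a range of -0.66 to 2.16. OASL rose 3.94-fold, OAS2 2.95-fold, ISG15 2.43-fold and MX1 1.93-fold, and the gene that fell was DDX60. IFIT5, 1 of the 18, had overlapping groups and an edgeR adjusted p of 0.0473, and it lost its call in 7 of 12 alternatives, among them DESeq2 (adjusted p = 0.0951) and the fits without NC_3_2, NC_3_3, SI_3 or SI_3_3 (edgeR adjusted p 0.0894 to 0.283). ISG15, a ubiquitin-like protein, went from 1271 ± 33.4 to 3094 ± 16.3 CPM. Of 8 genes typical of the interferon gamma and IRF1 response, 6 rose and 1 fell, with a median of 0.47. GBP4, a guanylate-binding protein, rose 3.33-fold (6.70 ± 0.165 to 22.4 ± 1.07 CPM), SOCS1, a feedback inhibitor of JAK kinases, 2.09-fold, ICAM1, an adhesion molecule, 1.48-fold and WARS, a tRNA synthetase induced by interferon gamma, 1.29-fold. The gene that fell, GBP2, had an edgeR adjusted p of 0.0425, which ran from 0.00733 to 0.175 over the alternatives and passed the threshold in 4 of 12; the call was lost without NC_3, NC_3_2, SI_3 or SI_3_3.

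**Figure D4:**
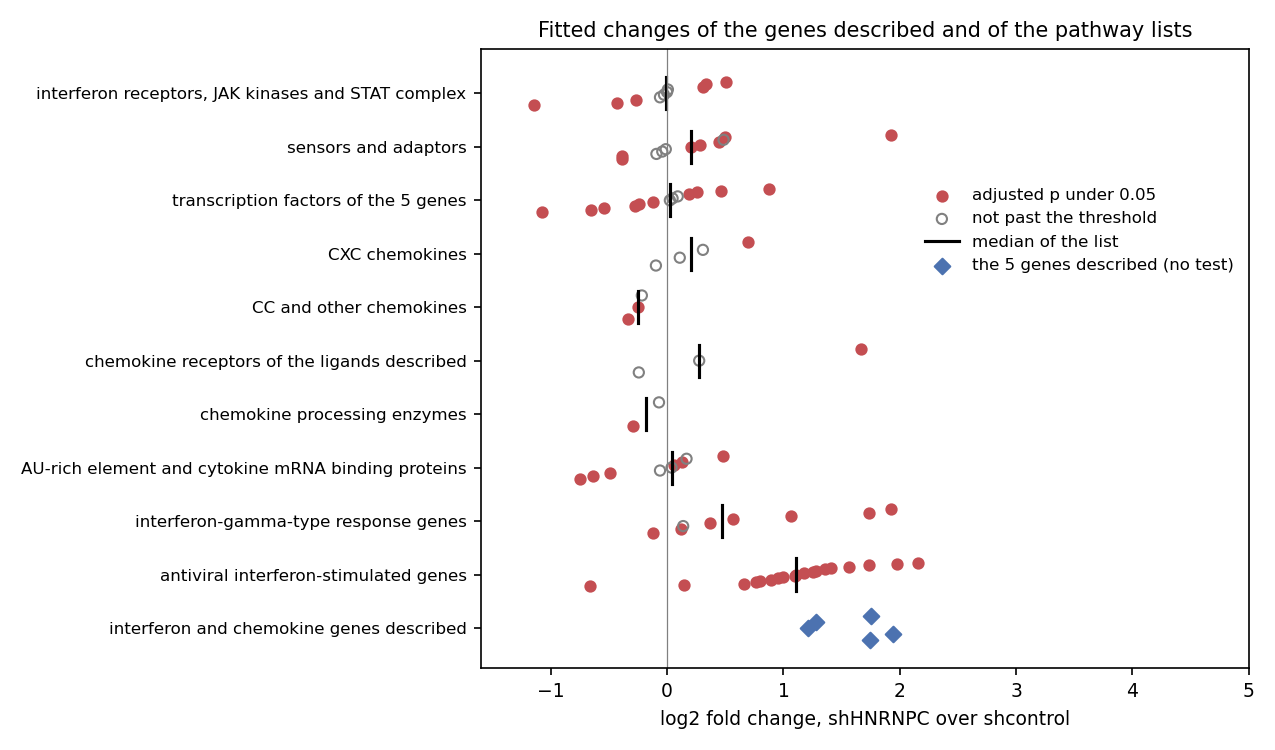
Fitted log2 fold changes (shHNRNPC over shcontrol) of every tested gene in 10 pathway lists, red where edgeR's adjusted p was under 0.05 and open otherwise, with black marks for list medians; blue diamonds are the 5 genes described, without a test. The antiviral list has its median at 1.11, and the receptor and transcription factor lists have medians near 0.

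Neighbours were taken among genes with a row, so any nearer gene without a row was skipped. Of these neighbours, the 5 genes left out, SDAD1, NUP54, SCARB2, KLHL9 and FOCAD were tested, and none was called higher. CXCL10 and CXCL11 lie next to each other on chromosome 4, at 76021117 to 76023497 and 76034690 to 76041415, both on the minus strand. The nearest tested genes on either side of the pair, SDAD1 and NUP54, fell, with log2 fold changes of -0.30 (SE 0.0647, edgeR adjusted p = 9.47e-05) and -0.25 (SE 0.0673, edgeR adjusted p = 0.00112), and SCARB2 did not pass (0.071, SE 0.0379). KLHL9 and FOCAD, the tested genes around IFNB1, lay 251708 and 81157 bases from it and also fell (-0.42 and -0.19). Around IFNL1, and around CCL5 on chromosome 17 at 35871491 to 35880508, minus strand, none of the 4 nearest genes with a row passed the filter. Those around CCL5 lay 106412 to 711374 bases away. In GENCODE 29, ART3 on the opposite strand spans both CXCL10 and CXCL11, and the antisense gene AC015849.1 overlaps CCL5. The processed pseudogene AC112719.1 lies within CXCL11 on the same strand. Whether counting used strand is not given, so reads from the opposite-strand partners cannot be told apart. Strand would not separate those of AC112719.1.

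Similar profiles were sought as the smallest Euclidean distance between mean-centred log2 CPM values over the 6 libraries. They share the pattern over these libraries, the difference between groups included, by construction. For CXCL10 they were MYLK3, a myosin light chain kinase (distance 0.184), KLF4, a transcription factor (0.229), and HAS3, a hyaluronan synthase (0.234). For CXCL11 they were NGFR, LMBR1L and CFAP70 (0.174 to 0.256). IFNL1 was nearest to SMTNL1, TNFRSF8 and GPX3 (0.584 to 0.949). Through this choice, these genes also had their lowest counts in NC_3 (1, 2 and 2 reads).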

How the data were processed

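The submitters sequenced RNA from 6 libraries of MHCC97H cells, 3 per group. The deposited counts are whole numbers that the authors left without normalisation. STAR, HTSeq 0.6.0 and DESeq2 are named in the submitters' processing notes; build, annotation and strand setting are not given there. The log2 fold changes deposited with the counts come from the authors. Columns named NC and SI were read as shcontrol and shHNRNPC, with no column tied to 1 sample. A further 24 columns of per-library values were not used. The deposited positions overlapped the same-named GENCODE 29 gene (GRCh38) for 96.1% of 15211 rows.

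In edgeR 4.0.16 (R 4.3.3), counts passed filterByExpr by group (11831 genes kept), TMM scaling and the glmQLFTest, with Benjamini-Hochberg adjustment over all kept genes and a threshold of 0.05. Each SE follows from a fold change and its test statistic. Fold changes are shHNRNPC over shcontrol. Intervals are exact at 95%, and a count of 0 has a floor of 3 counts. A chi-square check of counts gave 1.56 to 2.50 per gene between libraries of a group and 29.5 to 33.7 across groups, so all 6 were kept apart. In simulated data for this comparison (11821 genes), the test found 65.7% of genes changed 1.25-fold, 88.1% at 1.5-fold and 96.9% at 2-fold, beside 5 false calls. Only a small set of genes was changed there, and all genes were given the same dispersion. In the real data 61.1% of genes were called, so these rates need not hold for them.

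The 5 genes, 11 pathway lists and 5 marker lists were chosen with earlier results of these data known. Up to 4 tested genes of a list are named, those with the smallest adjusted p; others are named after their values were seen, and some list genes are not reported here. Ligands, chemokines and receptors under the filter are named with summed counts. Neighbours are the 2 nearest genes with a row on either side, and similar profiles the 3 nearest tested genes (prior count 2). Markers of plasmacytoid dendritic cells had no row used here, no endothelial marker passed the filter, and the fibroblast markers COL1A1 and PDGFRB did not pass the test (edgeR adjusted p = 0.845 and 0.883). Alternatives were other scalings, no filter, a filter at a mean of 1 CPM, DESeq2 1.42.0 and each library left out. For the 5 genes they also included a prior count of 1 in place of 0.125. Another, also for the 5 genes, was the ratio of summed counts scaled to library totals alone, without TMM factors.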

Additional observations from a re-analysis of the deposited data

How the results depend on the processing

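The log2 fold changes of the 5 genes kept their direction under every alternative that gave a value. Across the settings that kept all 6 libraries they ran from 1.64 to 1.77 for IFNL1, 1.63 to 2.0 for IFNB1, 1.17 to 1.22 for CXCL10, 1.24 to 1.29 for CXCL11 and 1.22 to 1.88 for CCL5. The value that moved by more than the spread between libraries was that of IFNB1 with a prior count of 1 (1.63). Leaving out each library in turn gave 1.24 to 2.21 for IFNL1, 1.85 to 2.09 for IFNB1, 1.12 to 1.29 for CXCL10, 1.19 to 1.35 for CXCL11 and 0.87 to 2.65 for CCL5. IFNL1 had no value under the filter at a mean of 1 CPM. IFNB1 and CCL5 were fitted without the filter throughout, and a group left with 2 libraries is assumed to vary like the other. Low counts limit CCL5 and IFNB1 most.

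Over all genes, 3520 were called higher and 3708 lower. The counts were 2988 and 4160 with library size alone and 3129 and 3242 with DESeq2, and 3250 to 3369 and 3464 to 3615 when each library was left out. Among the 82 tested genes of the pathway lists 41 were called higher and 19 lower, beside 29.8% and 31.3% of all tested genes. The ranges were 38 to 42 and 17 to 22 over all alternatives. Antiviral genes gave 18 of the 41, and the lists were chosen with earlier results known. CCR3 was not tested under the filter at a mean of 1 CPM. IFNAR2, which was not called, went from -0.028 to 0.022 without SI_3 and 0.014 without SI_3_3, with -0.12 without SI_3_2 as its lowest value. No paired analysis was possible because the columns of the count table carry no replicate numbers of the sample titles.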

Other observations

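Several chemokine genes had too few reads to be tested, and their summed counts over 3 libraries are given as values. CXCL3, a neutrophil attractant, had 12 reads in shcontrol and 33 in shHNRNPC. Its groups did not overlap, an order found in 24.9% of all rows. CCL17, a ligand of CCR4, had 3 and 13, CCL27 0 and 6, CXCL17 0 and 3, and CCL26, a ligand of CCR3, 8 and 14. CCL20 had 19 and 16 reads. CXCL5, CXCL14, CCL7, CCL8, CCL22, CCL24, CCL25, XCL1 and XCL2 had at most 2 reads in either group. Among the receptors, the scavengers ACKR1 and ACKR2 had 13 and 8 reads in shcontrol and 25 and 17 in shHNRNPC.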
